A study of Mus musculus with 15 samples.

Results

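The lysosomal genes described here are 48 genes that code for lysosomal proteases, glycosidases and sulfatases, lipid-handling enzymes and carriers, membrane proteins, proton pump subunits, acid phosphatases, progranulin and TFEB. They were taken by name, and every probe set whose platform symbol was one of these names was used, which gave 110 of 45101 probe sets and 48 of 18194 genes on the array. RNA from whole liver was measured in 15 male C57BL/6J mice, with 1 GeneChip Mouse Genome 430 2.0 array for each mouse. Feeding began at 8 weeks of age and lasted 12 weeks in each of 3 groups of 5 mice. The CL+CX mice received the CL diet with β-cryptoxanthin, a xanthophyll carotenoid. The CL mice received the CL diet alone, which is high in cholesterol and fat (cocoa butter at 60%, CRF-1 chow at 38.23%, cholesterol at 1.25% and sodium cholate at 0.5%) and was used in this study as a model of nonalcoholic steatohepatitis (NASH). The NC mice received CRF-1 standard chow, so that CL and NC diets differed in cholesterol, fat and cholate together. The dose of β-cryptoxanthin is not settled, since the treatment text and the methods have 0.003% of the diet while the CL+CX titles and source names have 0.005%.

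Lysosomes are acidic organelles that break down proteins, glycans and lipids delivered by endocytosis, phagocytosis and autophagy. A proton pump in their membrane keeps the lumen acidic, and most hydrolases work only there. Cholesterol that arrives in lipoproteins is freed from its esters by acid lipase, and the carriers NPC2 and NPC1 then hand it out of the organelle. In the liver, hepatocytes and resident macrophages (Kupffer cells) are both rich in lysosomes, and macrophages that have taken up lipid are known for a high content of lysosomal proteases.

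Signals are MAS5 intensities scaled to a common 75th percentile of 54.05, and differences are between group means of log2 signals. A probe set was tested if its signal was at or above the array median on all 5 arrays of at least 1 group. Of the 110 probe sets, 88 passed this filter, and they stand for 47 genes, each represented by its tested probe set with the highest mean signal. Tfeb, the transcription factor that drives many lysosomal genes, was the member not tested, with mean signals of 13.8 ± 13.4 in CL+CX, 18.6 ± 11.0 in CL and 9.73 ± 7.70 in NC livers (SD, n = 5 each). Of the 47 genes, 44 passed the filter in all 3 groups, Ctsk passed it through CL livers alone, Gla through CL and CL+CX livers, and Atp6v0d2 through CL+CX and NC livers. A gene is said to have risen or fallen where limma, fitted over all 20342 probe sets tested, gave a Benjamini-Hochberg adjusted p under 0.05.

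Hepatocyte markers summed to 52640 to 62540 in CL+CX, 48440 to 78670 in CL and 66440 to 83750 in NC livers, with none of the 8 measured markers below the array median throughout a group. All CL+CX sums lay below all NC sums (exact permutation test, two-sided, adjusted p = 0.0238). By the same test the sums did not pass in CL against NC (adjusted p = 0.105) or in CL+CX against CL (0.881). The array of CL replicate 2 correlated least with the other arrays of its group (mean r = 0.941, against 0.957 to 0.972 for the other 14 arrays). The log2 difference between the 3′ and 5′ β-actin probe sets, a sign of RNA or labelling quality, was 1.07 ± 0.101 in CL+CX, 0.822 ± 0.0968 in CL and 0.937 ± 0.0859 in NC livers (SD, n = 5 each), and all CL+CX arrays lay above all CL arrays (exact permutation test, two-sided, p = 0.00794, adjusted p = 0.0238, the smallest p that 5 against 5 allows being 0.00794). In whole liver, fewer cells of a type and less RNA per cell cannot be told apart.

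The promoters of the lysosomal genes are shown where they hold the letters TCACGTG, the core of the element that TFEB and its relatives bind, or GAGGAAGT, which PU.1, a transcription factor of macrophages (gene Spi1), is known to bind. RefSeq promoter windows (250 bases before to 50 after each start, GRCm38.p6) were found for 41 of the 48 genes. TCACGTG was present on either strand in 10 of these 41 genes (24.4%), against 4.29% of all 27025 genes with a window, and the 10 genes are Atp6v0d1, Atp6v1a, Cln3, Ctsa, Gaa, Gla, Glb1, Lamp1, Lgmn and Mcoln1. Its inner part CACGTG, which every TCACGTG also contains, was present in 11 genes (26.8%, against 8.09%), with Ctsl as the added one. GAGGAAGT or its reverse complement ACTTCCTC was present in 4 genes (9.76%, against 3.69%), namely Ctsc, Ctss, Gla and Gusb. Below, 30 bases around the match are given on the strand of the gene with the match in capitals, for 4 genes that rose or fell (Lgmn, Gla, Gaa and Ctss) and for 4 with the same letters whose representative probe set did not pass the test. A capital A after TCACGTG completes the match on the other strand, and the last 2 lines hold ACTTCCTC.
Lgmn, chr12:102439125-102439154 (minus strand): atggaatgtctgTCACGTGgtccattttat
Gla, chrX:134601216-134601245 (minus strand): gtaagcgattgaTCACGTGAgcatctacgt
Gaa, chr11:119267810-119267839 (plus strand): ttttctgtgcgaTCACGTGtttgactctga
Lamp1, chr8:13159087-13159116 (plus strand): gagggcaagataTCACGTGgtccagcgccc
Ctsa, chr2:164833748-164833777 (plus strand): atgagcaaactgTCACGTGAtgcagatgct
Mcoln1, chr8:3500461-3500490 (plus strand): caggcgccccgcTCACGTGAccgcggcgca
Ctss, chr3:95526772-95526801 (plus strand): aaatgaaagttcACTTCCTCattgtggatg
Ctsc, chr7:88277922-88277951 (plus strand): tgtcactaactaACTTCCTCaggccacctc
The first 3 of these genes carried the same 7 letters and differed in CL against NC, where Lgmn and Gla rose and Gaa fell, as described with their values under their groups. Over the 10 genes with TCACGTG, 2 rose and 1 fell in CL against NC, and over the 30 tested genes with a window and without it, 6 rose and none fell. Over all genes tested 7.2% rose and 6.76% fell. Ctsb, Asah1 and Atp6v1b2, which rose, and Npc1, which fell, had no window and are in neither count. Gla, counted among those that rose, passed the filter only through CL and CL+CX livers, where it was higher. A match describes these letters in this window and is not a measured binding site.

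The CL diet was compared with standard chow to ask which lysosomal genes changed in the diet-induced NASH liver. Of the 47 genes tested, 11 rose in CL livers (7.2% of all 10521 genes tested rose) and 2 fell (6.76% of all genes fell). The 4 genes that rose by more than 1 on the log2 scale were the proteases Ctss and Lgmn and the membrane proteins Cd68 and Laptm5. The other 7 that rose were the α-galactosidase Gla, the cholesterol carrier Npc2, the thioesterase Ppt1, the proton pump subunit Atp6v1b2, the ceramidase Asah1, the β-hexosaminidase subunit Hexa and the protease Ctsb. Of these, Gla passed the filter only through CL and CL+CX livers, where it was higher. The 2 that fell were Npc1, the cholesterol carrier of the lysosomal membrane, and Gaa, the enzyme that breaks down glycogen in the lysosome. The median difference was 0.133 over the 47 genes and -0.075 over all genes tested. With the signals as deposited, before scaling, 16 members rose and none fell, while over all genes 1335 rose and 46 fell, against 757 and 711 after scaling.

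β-Cryptoxanthin was compared within the CL diet, so that the CL livers serve in both comparisons and the values below are set side by side for each gene. In CL+CX against CL livers 5 of the 47 genes fell (1.78% of all genes fell) and none rose (1.48% of all genes rose), while 13 genes had an unadjusted p under 0.05, as had 18.7% of all 10521 genes. The 5 were Lgmn, Cd68, Ctss, Atp6v1b2 and Npc2, each with its values in all 3 groups below. The median difference was -0.107 over the 47 genes and 0.023 over all genes tested. In CL+CX against NC livers 2 genes, Ctss and Laptm5, were higher (5.11% of all genes were higher) and 1, Gaa, was lower (4.85% of all genes were lower), with a median of -0.004 over the 47 genes and -0.038 over all genes. None of the 5 falls passed the test when the β-actin difference of each array was entered as a covariate, where 1 gene of all 10521 passed and the differences were -0.57 for Ctss, -0.58 for Lgmn, -0.84 for Cd68, -0.56 for Atp6v1b2 and -0.43 for Npc2 (adjusted p = 0.918, 0.881, 0.911, 0.737 and 0.886). The covariate itself did not overlap between CL+CX arrays (0.949 to 1.17) and CL arrays (0.699 to 0.945). This fit can therefore hardly tell β-cryptoxanthin and RNA quality apart. With no filter the differences of the 5 genes were those of the main fit, and none passed (adjusted p = 0.0651 for Lgmn to 0.159 for Npc2), where 21 of all 18193 genes did.

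**Figure D1:**
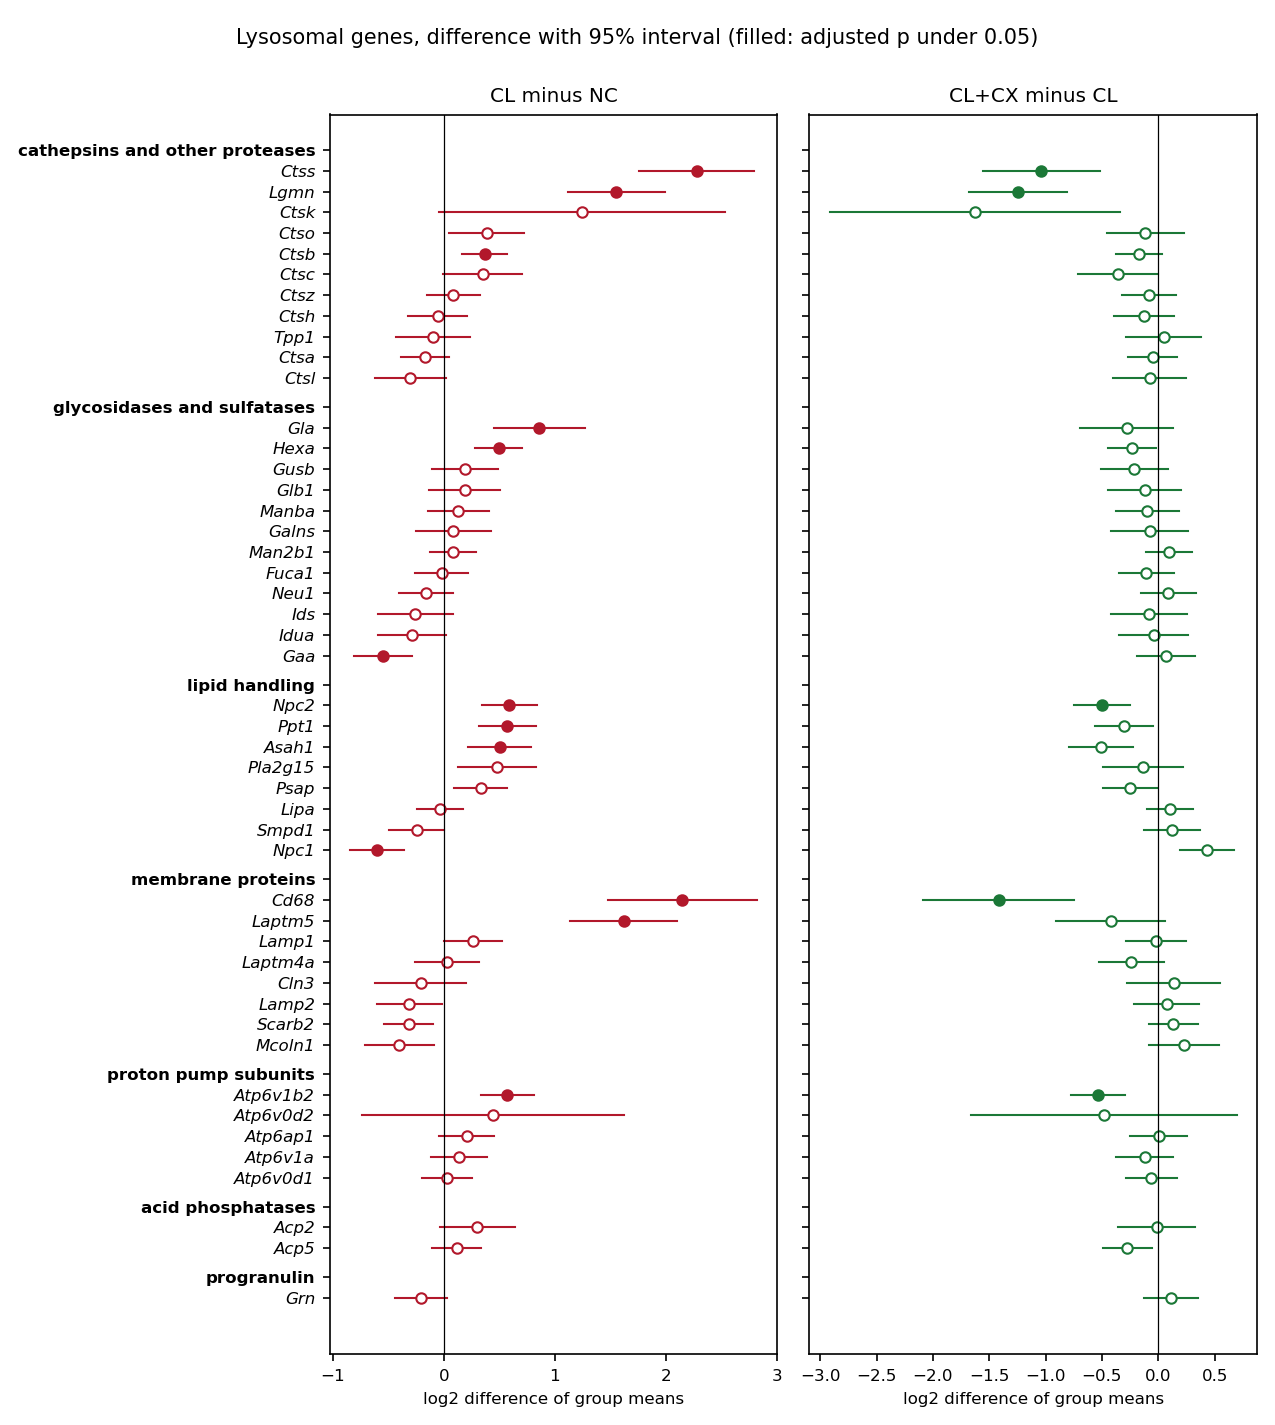
Log2 differences of group means with 95% confidence intervals for the 47 tested lysosomal genes, by role, in CL minus NC (left) and CL+CX minus CL (right), with filled points for an adjusted p under 0.05. Ctss and Cd68 reach 2.28 and 2.15 in CL minus NC, while most glycosidases and pump subunits have intervals that hold 0 in both panels.

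Among the cathepsins and other proteases, 3 of 11 genes rose in CL livers and none fell, where 7.2% of all genes rose and 6.76% fell. The median difference was 0.35. In CL+CX against CL livers 2 of 11 fell, where 1.78% of all genes fell, with a median of -0.13. Ctss codes for cathepsin S, a protease that trims the invariant chain of MHC class II in antigen-presenting cells. Its signals were 1323, 699.5, 512, 614 and 898 in the 5 CL+CX livers, against 1657, 1486, 1222, 1956 and 1626 in the 5 CL livers and 197, 411, 345, 370.1 and 342 in the 5 NC livers. All CL livers lay above all NC livers, CL+CX replicate 1 lay within the range of the CL livers, and no CL+CX liver reached down to the NC range. The difference was 2.28 ± 0.243 (SE, adjusted p = 6.26e-05) in CL minus NC, a 4.86-fold rise, -1.04 ± 0.243 (SE, adjusted p = 0.0353) in CL+CX minus CL and 1.24 ± 0.243 (SE, adjusted p = 0.00631) in CL+CX minus NC.

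Lgmn codes for legumain, a protease that cuts after asparagine and helps to activate cathepsins. Its signals were 282, 131, 110.3, 141 and 154 in the 5 CL+CX livers, against 437, 358, 398, 324 and 329 in the 5 CL livers and 108, 142, 103, 144 and 133 in the 5 NC livers. The CL livers did not overlap with either other group, and the CL+CX and NC livers overlapped except for CL+CX replicates 1 and 5, which were above all NC livers. Lgmn rose in CL livers by 1.55 ± 0.206 (SE, adjusted p = 0.000259) and differed by -1.25 ± 0.206 (SE, adjusted p = 0.00932) in CL+CX minus CL, which was 2.37-fold lower with β-cryptoxanthin. The difference between CL+CX and NC livers was 0.31, with a 95% interval of -0.13 to 0.75 and an adjusted p of 0.357. Both Lgmn changes from CL livers passed with each of the 15 mice left out in turn, with an adjusted p of 0.000853 to 0.0311 in CL+CX against CL. The fall of Ctss did not pass without CL+CX replicate 2, 3 or 4 (adjusted p = 0.0789, 0.0999 and 0.0874) or without CL replicate 1, 2 or 4 (0.0719, 0.0525 and 0.0738), nor in a fit blocked on replicate number (0.0696), with quantile normalization (0.0505), as deposited (0.0858) or with only the 2 groups in the fit (0.0637).

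Ctsb codes for cathepsin B, a cysteine protease of most cells. Its signals were 2164, 1976, 1868, 2022 and 1865 in the 5 CL+CX livers, against 2212, 2269.9, 2269, 2024 and 2379 in the 5 CL livers and 1642, 1913, 1834, 1624 and 1625 in the 5 NC livers. The CL and NC livers did not overlap, though the margin was small. The difference was 0.37 ± 0.0955 (SE, adjusted p = 0.0202) in CL minus NC, and it did not pass without NC replicate 1 or NC replicate 5 (adjusted p = 0.0524 and 0.0502), with no filter (0.0926), with only the 2 groups in the fit (0.0627), with the β-actin covariate (0.0736) or with the mean over the Ctsb probe sets (0.099). A second Ctsb probe set was higher in CL than in NC livers by 0.44 (adjusted p = 0.0453) and had a fall with β-cryptoxanthin of -0.56 in CL+CX minus CL (adjusted p = 0.04), whereas the probe set that stands for the gene had -0.17 (adjusted p = 0.34) in CL+CX minus CL.

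Ctsl, for cathepsin L, was the protease with the highest mean signal and had 3550.5, 3951, 3416, 3435 and 3631 in the 5 CL+CX livers, against 3243, 5552, 4164, 2974 and 3491 in the 5 CL livers and 4637, 5618, 4303, 4792 and 4109 in the 5 NC livers. CL replicate 2 lay at the level of the highest NC liver, while the other CL livers were below or near the lowest NC liver. The difference in CL minus NC was -0.30 ± 0.152 (SE, adjusted p = 0.22), and without CL replicate 2 it was -0.44 with an adjusted p of 0.0211. With the signals as deposited it was 0.015, so its direction depends on the scaling. Ctsk, for cathepsin K, a collagen-degrading protease known from osteoclasts, was dim, with 1.83 to 17.3 in CL+CX, 11.7 to 36.8 in CL and 2.84 to 17.5 in NC livers, and had differences of 1.25 (adjusted p = 0.203) in CL minus NC and -1.63 (adjusted p = 0.148) in CL+CX minus CL. The remaining proteases were the carboxypeptidases Ctsa and Ctsz, the dipeptidyl peptidase Ctsc, the aminopeptidase Ctsh, Ctso, and the tripeptidyl peptidase Tpp1. Their differences lay between -0.17 (Ctsa) and 0.39 (Ctso) in CL minus NC and between -0.36 (Ctsc) and 0.05 (Tpp1) in CL+CX minus CL, and none passed the test.

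**Figure D2:**
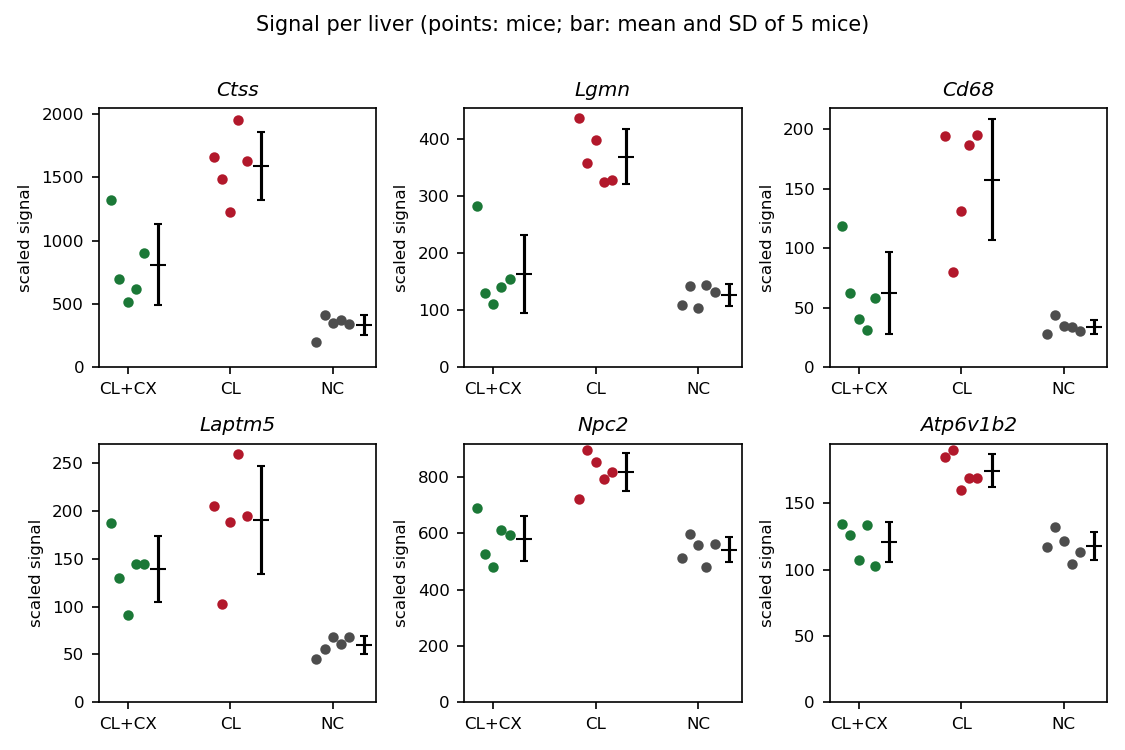
Scaled signal in each liver for the 6 genes that rose by over 1 on the log2 scale in CL livers or fell in CL+CX livers, with bars for the mean and SD of 5 mice. For Lgmn the 5 CL livers lie between 324 and 437, above all CL+CX and NC livers, while for Laptm5 the CL+CX livers, at 90.8 to 187, lie above all NC livers, at 45.6 to 68.2.

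Among the glycosidases and sulfatases, 2 of 12 genes rose in CL livers and 1 fell, where 7.2% of all genes rose and 6.76% fell. The median difference was 0.08. None of 12 passed in CL+CX against CL (1 at an unadjusted p under 0.05, where 18.7% of all genes were), with a median of -0.09. Hexa codes for the α subunit of β-hexosaminidase, which degrades GM2 ganglioside. Its signals were 555, 565, 495, 609 and 483 in the 5 CL+CX livers, against 661, 655, 662, 581 and 615 in the 5 CL livers and 429, 489, 479, 409 and 449 in the 5 NC livers. No NC liver reached the CL range, and the CL+CX livers spanned from the NC to the CL range. The difference was 0.49 ± 0.101 (SE, adjusted p = 0.00547) in CL minus NC and -0.23 in CL+CX minus CL (95% interval -0.45 to -0.02, adjusted p = 0.213).

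Gla codes for α-galactosidase A, which removes terminal galactose from glycolipids. It was dim, with 25.1, 24.6, 18.8, 22.3 and 22.2 in the 5 CL+CX livers, against 19.9, 29.2, 33.8, 24.6 and 31.4 in the 5 CL livers and 10.8, 18.7, 22.2, 12.6 and 13.8 in the 5 NC livers, and 2 NC arrays were below their array median. CL replicate 1 lay within the NC range, while the other CL livers were above it. Gla, which passed the filter only through the groups where it is high, rose by 0.86 ± 0.193 (SE, adjusted p = 0.00942) in CL minus NC, did not pass by the methods' test, and had -0.28 (adjusted p = 0.457) in CL+CX minus CL.

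Gaa codes for acid α-glucosidase, which splits glycogen in the lysosome. Its signals were 191, 224, 211, 233 and 237 in the 5 CL+CX livers, against 199, 227, 252, 194 and 177 in the 5 CL livers and 311, 264, 356, 292 and 306 in the 5 NC livers. The NC livers lay above all CL and all CL+CX livers, and the CL+CX and CL livers overlapped. The difference was -0.55 ± 0.121 (SE, adjusted p = 0.00859) in CL minus NC, -0.48 ± 0.121 (SE, adjusted p = 0.0224) in CL+CX minus NC and 0.07 (adjusted p = 0.809) in CL+CX minus CL. The second Gaa probe set had -0.42 in CL minus NC (adjusted p = 0.129), 0.44 in CL+CX minus CL (adjusted p = 0.169) and 0.018 in CL+CX minus NC (adjusted p = 0.963), and with the mean over both the difference in CL+CX minus NC was -0.23 (adjusted p = 0.231). With the β-actin covariate neither Gaa call passed (adjusted p = 0.0502 for CL minus NC and 0.0645 for CL+CX minus NC), and with no filter the CL+CX minus NC call did not (0.0969). With the signals as deposited Gaa had -0.23 in CL minus NC (adjusted p = 0.401) and -0.23 in CL+CX minus NC (adjusted p = 0.394). Its difference in CL+CX minus NC did not pass without CL+CX replicate 1 (adjusted p = 0.0554), NC replicate 1 (0.0531) or NC replicate 3 (0.0559).

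Man2b1, for lysosomal α-mannosidase and the member of its group with the highest mean signal, had 1006, 978, 908, 1062 and 970.1 in the 5 CL+CX livers, against 821, 911, 960.2, 888 and 1039 in the 5 CL livers and 854, 907, 946, 806 and 844 in the 5 NC livers. The 3 groups overlapped, with differences of 0.08 (adjusted p = 0.635) in CL minus NC and 0.09 (adjusted p = 0.642) in CL+CX minus CL. The others of the group were the β-galactosidase Glb1, the β-glucuronidase Gusb, the β-mannosidase Manba, the sialidase Neu1, the fucosidase Fuca1, and Galns, Ids and Idua, which degrade glycosaminoglycans. Their differences lay between -0.29 (Idua) and 0.19 (Gusb) in CL minus NC and between -0.21 (Gusb) and 0.09 (Neu1) in CL+CX minus CL. A second Gusb probe set fell in CL+CX against CL livers, at -0.75 (adjusted p = 0.0408), and a second Man2b1 probe set was higher in CL+CX than in NC livers, at 0.84 (adjusted p = 0.0253).

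Among the 8 lipid-handling genes, 3 rose in CL livers and 1 fell, where 7.2% of all genes rose and 6.76% fell. The median difference was 0.40. In CL+CX against CL livers 1 of the 8 fell, where 1.78% of all genes fell, with a median of -0.20. The 2 cholesterol carriers moved in opposite directions on the CL diet. Npc2 is the soluble carrier that takes cholesterol up in the lumen. Its signals were 689, 524, 481, 613 and 595 in the 5 CL+CX livers, against 720.5, 896, 853, 793 and 818 in the 5 CL livers and 512, 597, 559, 481 and 561 in the 5 NC livers. The CL livers lay above all CL+CX and all NC livers, and the CL+CX and NC livers overlapped. Npc2 rose by 0.59 ± 0.116 (SE, adjusted p = 0.00425) in CL minus NC and was lower by a difference of -0.50 ± 0.116 (SE, adjusted p = 0.0349) in CL+CX minus CL.

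Both other tested Npc2 probe sets rose in CL livers, by 0.55 (adjusted p = 0.00963) and by 1.42 (adjusted p = 0.000843). In CL+CX minus CL they had differences of -0.35 (adjusted p = 0.13) and -0.88 (adjusted p = 0.0428). The fall of Npc2 in CL+CX livers did not pass in a fit blocked on replicate number (adjusted p = 0.0741), without CL+CX replicate 2, 3, 4 or 5 (0.0838, 0.0999, 0.0655 and 0.0551) or without CL replicate 2, 3 or 4 (0.0519, 0.0708 and 0.0581), as deposited (0.138) or with only the 2 groups in the fit (0.0839).

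Npc1, which passes cholesterol out through the lysosomal membrane, had 393, 408, 355, 300.4 and 329 in the 5 CL+CX livers, against 266, 219, 276, 258 and 302 in the 5 CL livers and 397, 384, 394, 394 and 425 in the 5 NC livers. All CL livers lay below all NC livers, while 4 of 5 CL+CX livers were above every CL liver and 2 of these lay within the NC range. The difference was -0.60 ± 0.114 (SE, adjusted p = 0.00329) in CL minus NC, and 0.43 ± 0.114 in CL+CX minus CL with an adjusted p of 0.05 that before rounding was just above the threshold. The difference in CL+CX minus CL passed in 6 of the 26 alternatives. Among these were the filter at the 75th percentile (adjusted p = 0.0221) and the offset of 16 (0.0313). With the signals as deposited the difference in CL minus NC was -0.29 (adjusted p = 0.354).

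Asah1 codes for acid ceramidase. Its signals were 402, 289, 266, 255 and 299 in the 5 CL+CX livers, against 367, 509, 412, 420.0 and 422 in the 5 CL livers and 284, 348, 296, 296 and 276 in the 5 NC livers. All CL livers lay above all NC livers, and CL+CX replicate 1 was the only CL+CX liver within the range of the CL livers. The difference was 0.50 ± 0.133 (SE, adjusted p = 0.0231) in CL minus NC and -0.51 ± 0.133 in CL+CX minus CL (adjusted p = 0.0505), and it was -0.61 in CL+CX minus CL without CL+CX replicate 1 (adjusted p = 0.0164). The difference in CL+CX minus CL passed in 7 of the 26 alternatives, among them quantile normalization (adjusted p = 0.0426) and the filter at the 75th percentile (0.0221). The rise in CL livers did not pass without NC replicate 1 or NC replicate 5 (adjusted p = 0.0552 and 0.055), with no filter (0.0945) or with the β-actin covariate (0.119).

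Ppt1, which removes palmitate from proteins, had 103, 115, 88.5, 102 and 126 in the 5 CL+CX livers, against 141, 154, 120.2, 131 and 114 in the 5 CL livers and 91.6, 92.7, 95.9, 81.4 and 80.8 in the 5 NC livers. Each CL liver was above each NC liver, and the CL+CX livers overlapped with both. The difference was 0.57 ± 0.121 (SE, adjusted p = 0.00652) in CL minus NC and -0.31 (adjusted p = 0.169) in CL+CX minus CL.

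Psap codes for prosaposin, the precursor of the saposins that present sphingolipids to their hydrolases, and was the lipid-handling gene with the highest mean signal. Its signals were 2148, 1849, 1468, 1788 and 1588 in the 5 CL+CX livers, against 2082, 1937, 1919, 2330.0 and 2213 in the 5 CL livers and 1635, 1702, 1721, 1553 and 1697 in the 5 NC livers. All CL livers lay above all NC livers, but the difference of 0.33 missed the threshold (adjusted p = 0.067), and without CL replicate 2 it was 0.36 with an adjusted p of 0.0404. A second Psap probe set was lower in CL+CX than in CL livers, at -0.65 (adjusted p = 0.0415), while the one that stands for the gene had -0.25 (adjusted p = 0.225). Lipa, the acid lipase that splits cholesteryl esters, averaged 952 ± 61 in CL+CX, 886 ± 70.5 in CL and 906 ± 59.9 in NC livers (SD, n = 5 each), with a difference of -0.03 in CL minus NC whose 95% interval ran from -0.24 to 0.17. The phospholipase Pla2g15 had 0.48 (adjusted p = 0.0746) and the acid sphingomyelinase Smpd1 -0.24 (adjusted p = 0.19) in CL minus NC. A second Smpd1 probe set was lower in CL than in NC livers, at -0.59 (adjusted p = 0.0336), whereas the first turned to 0.071 with the signals as deposited.

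**Figure D3:**
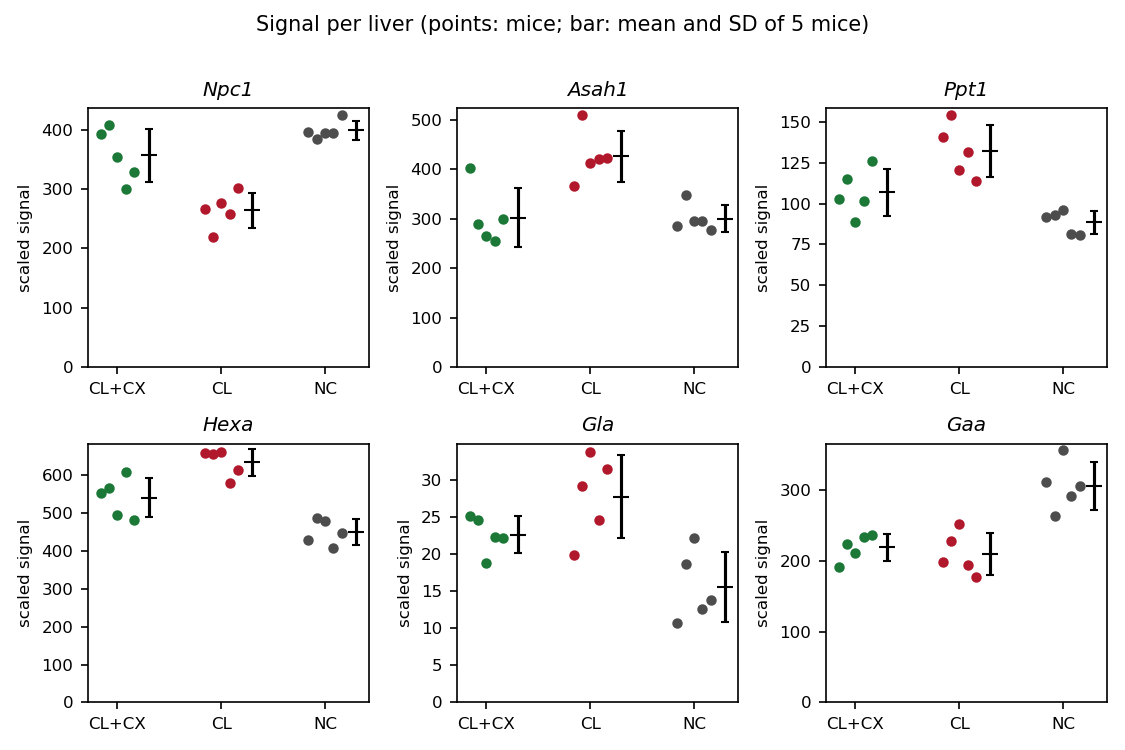
Scaled signal in each liver for 3 lipid-handling genes (Npc1, Asah1, Ppt1) and 3 glycosidases (Hexa, Gla, Gaa), with bars for the mean and SD of 5 mice. Npc1 and Gaa are lower in CL than in NC livers, and 4 of 5 CL+CX livers lie above every CL liver for Npc1 while CL+CX and CL livers overlap for Gaa.

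Among the 8 membrane proteins, 2 rose in CL livers and none fell, where 7.2% of all genes rose and 6.76% fell. The median difference was -0.09. In CL+CX against CL livers 1 of the 8 fell, where 1.78% of all genes fell, with a median of 0.03. Cd68, a heavily glycosylated lysosomal membrane protein used as a marker of macrophages, had 119, 62.5, 40.6, 31 and 58.5 in the 5 CL+CX livers, against 195, 80, 131, 187 and 196 in the 5 CL livers and 27.7, 43.6, 34.6, 33.9 and 30.4 in the 5 NC livers. All CL livers lay above all NC livers, the CL+CX livers overlapped with both, and CL replicate 2 was the lowest of the CL livers. The difference was 2.15 ± 0.316 (SE, adjusted p = 0.00052) in CL minus NC, a 4.44-fold rise, and -1.42 ± 0.316 (SE, adjusted p = 0.0293) in CL+CX minus CL. The fall did not pass in a fit blocked on replicate number (adjusted p = 0.0532), without CL+CX replicate 2, 3 or 4 (0.0631, 0.0889 and 0.0714) or without CL replicate 1, 3 or 4 (0.0677, 0.0507 and 0.0639), as deposited (0.087) or with only the 2 groups in the fit (0.076).

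Laptm5, a lysosomal membrane protein of blood cells, had 187, 129, 90.8, 145 and 144 in the 5 CL+CX livers, against 205, 102, 188, 259 and 194 in the 5 CL livers and 45.6, 56.2, 67.9, 61.1 and 68.2 in the 5 NC livers. The CL and CL+CX livers overlapped, and both groups lay above all NC livers. The difference was 1.62 ± 0.229 (SE, adjusted p = 0.00039) in CL minus NC and 1.20 ± 0.229 (SE, adjusted p = 0.00539) in CL+CX minus NC. In CL+CX minus CL it was -0.42, with a 95% interval of -0.91 to 0.06 and an adjusted p of 0.327, whereas a second probe set had -0.78 (adjusted p = 0.0389) and another -0.27 (adjusted p = 0.451).

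Lamp2, with the highest mean signal of the group and, with Lamp1, a main glycoprotein of the lysosomal membrane, had 2163, 2498, 2432, 2283 and 2535 in the 5 CL+CX livers, against 2045, 3222, 2322, 1781 and 2155 in the 5 CL livers and 2988, 2912, 2838, 2794 and 2493 in the 5 NC livers. CL replicate 2 was above all NC livers, and the other CL livers were below all of them. The difference in CL minus NC was -0.31 (adjusted p = 0.158), and -0.44 without CL replicate 2 (adjusted p = 0.00946), while the signals as deposited gave 0.005. Lamp1 averaged 2077 ± 204 in CL+CX, 2114 ± 317 in CL and 1753 ± 190.5 in NC livers (SD, n = 5 each), with 0.26 (adjusted p = 0.191) in CL minus NC.

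Scarb2, the receptor that brings glucocerebrosidase to the lysosome, and Mcoln1, a calcium channel of the lysosomal membrane, had -0.31 and -0.40 in CL minus NC (adjusted p = 0.0612 and 0.0877). Without CL replicate 2 these were -0.33 (adjusted p = 0.0393) and -0.49 (adjusted p = 0.023), and the signals as deposited gave 0.001 for Scarb2. A second Mcoln1 probe set was lower than in NC livers both in CL livers, at -0.44 (adjusted p = 0.0228), and in CL+CX livers, at -0.59 (adjusted p = 0.0064). Laptm4a and Cln3 had differences of 0.03 and -0.21 in CL minus NC. With CL replicate 2 left out, 18 of the 47 genes passed in CL against NC, 12 higher and 6 lower. Over all 10664 genes then tested, 955 were higher and 1390 lower, against 757 and 711 of 10521 with all mice. In CL+CX against CL 3 of the 47 fell without this mouse, as did 164 of all 10664 genes.

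Among the 5 proton pump subunits, 1 rose in CL livers and none fell, where 7.2% of all genes rose and 6.76% fell. The median difference was 0.21. In CL+CX against CL livers 1 of the 5 fell, where 1.78% of all genes fell, with a median of -0.12. Atp6v1b2 codes for a B subunit of the part that binds ATP. Its signals were 135, 126, 108, 134 and 103 in the 5 CL+CX livers, against 184, 190.5, 159.6, 169 and 169 in the 5 CL livers and 117, 132, 122, 104 and 113 in the 5 NC livers. The CL livers lay above all CL+CX and all NC livers, and the CL+CX and NC livers overlapped. The difference was 0.57 ± 0.111 (SE, adjusted p = 0.00406) in CL minus NC and -0.54 ± 0.111 (SE, adjusted p = 0.0228) in CL+CX minus CL, with 0.04 in CL+CX minus NC (95% interval -0.20 to 0.27). The fall in CL+CX livers did not pass without CL+CX replicate 2 (adjusted p = 0.0547), CL+CX replicate 3 (0.0759) or CL replicate 1 (0.0501), as deposited (0.135) or with only the 2 groups in the fit (0.0646).

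The other pump subunits did not pass. Atp6v0d1, with the highest mean signal of these, had 446, 493, 446, 490.0 and 412 in the 5 CL+CX livers, against 528, 492, 499, 392 and 484 in the 5 CL livers and 483, 461, 515, 425 and 452 in the 5 NC livers. Its groups overlapped, with 0.03 (adjusted p = 0.882) in CL minus NC and -0.06 (adjusted p = 0.8) in CL+CX minus CL. Atp6v0d2, a subunit known from osteoclasts and macrophages, ranged from 16.6 to 75.3 in CL+CX, 11.8 to 95.6 in CL and 21.1 to 50.3 in NC livers. Atp6v1a and Atp6ap1 had differences of 0.14 and 0.21 in CL minus NC, with 95% intervals of -0.12 to 0.39 and -0.04 to 0.46.

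Neither acid phosphatase passed. Acp5, the tartrate-resistant enzyme and the one with the higher mean signal, had 414, 452, 397, 389 and 392 in the 5 CL+CX livers, against 512, 543, 539, 405 and 486 in the 5 CL livers and 488, 458, 455, 446 and 435 in the 5 NC livers. Of the CL+CX livers 3 lay below all CL livers, with -0.28 (adjusted p = 0.148) in CL+CX minus CL, and Acp2 had 0.30 (adjusted p = 0.24) in CL minus NC. Grn codes for progranulin, which is cut to granulins in the lysosome. Its signals were 1863, 1889.6, 1518, 2105 and 1776 in the 5 CL+CX livers, against 1414, 1836, 1688, 1836 and 1672 in the 5 CL livers and 2035, 1882, 1886, 2080.0 and 1814 in the 5 NC livers. The groups overlapped, with -0.20 (adjusted p = 0.258) in CL minus NC and 0.11 (adjusted p = 0.621) in CL+CX minus CL.

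Over all 88 tested probe sets of the lysosomal genes, 16 were higher and 4 lower in CL than in NC livers, or 20 in all, where 12.2% of all probe sets passed. In CL+CX against CL livers 10 were lower and none higher, where 3.13% of all probe sets passed, and in CL+CX against NC livers 4 were higher and 5 lower, where 9.79% passed. Ctsb, Gusb, Psap and Laptm5 passed in CL+CX against CL only by a probe set other than the one that stands for the gene.

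Other lysosomal genes were taken from 7 lists of 102 genes, of which 84 were tested. In CL against NC livers 9 of the 84 rose and 2 fell, where 7.2% of all genes rose and 6.76% fell. In CL+CX against CL livers 3 rose and 3 fell, where 1.48% of all genes rose and 1.78% fell. Slc11a1, a metal transporter of the phagolysosome membrane in macrophages, averaged 61.6 ± 19.5 in CL+CX, 113 ± 4.66 in CL and 47.4 ± 10.2 in NC livers. It rose by 1.28 (adjusted p = 0.000843) in CL minus NC and had -0.93 (adjusted p = 0.0261) in CL+CX minus CL. Pld3, an exonuclease of the lysosome, had 0.60 in CL minus NC (adjusted p = 0.0169) and -0.64 in CL+CX minus CL (adjusted p = 0.0353). Of the relatives of TFEB and lysosomal nutrient sensing, 1 of 12 rose in CL livers, which was Tfec, a relative of TFEB found in macrophages, with 1.61 (adjusted p = 0.0114).

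The other genes of these lists that rose in CL livers were the aspartic protease Ctsd, cathepsin D (0.58, named after its value was seen), the galactosylceramidase Galc (0.74), the acid amidase Naaa (0.64), the proton pump subunit Atp6v1g1 (0.57), Gnptab, which tags hydrolases for delivery (0.51), and the cathepsin inhibitor Cstb (0.50). None of these 6 passed in CL+CX against CL livers. The 2 that fell in CL livers were Ulk1 and Ctsf, for cathepsin F, which was named after its values were seen and had -0.43 (adjusted p = 0.0404) in CL minus NC and -0.69 (adjusted p = 0.00474) in CL+CX minus NC. Arylsulfatase A (Arsa) rose in CL+CX against CL livers by 0.51 (adjusted p = 0.0378), with -0.06 in CL minus NC. The folliculin partner Fnip2 was likewise higher in CL+CX livers, by 0.63 (adjusted p = 0.047). Of the autophagy genes, the receptor Sqstm1 was lower in CL+CX than in CL livers, at -0.61 (adjusted p = 0.04). Ulk1, the kinase that starts autophagy, fell in CL livers, at -0.51 (adjusted p = 0.0263), and rose in CL+CX against CL livers by 0.59 (adjusted p = 0.0353).

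Macrophage markers moved in the same comparisons. Of 17 macrophage and monocyte markers 16 were tested, and all 16 rose in CL livers, where 7.2% of all genes rose. In CL+CX against CL livers 9 of the 16 fell, where 1.78% of all genes fell. With the β-actin covariate, whose limit is given above, no gene of all 10521 fell in this comparison, the 9 markers included. The summed signal of the 17 markers was 2367 to 5463 in CL+CX, 7024 to 8398 in CL and 1196 to 2492 in NC livers, and the CL livers overlapped with neither other group (exact permutation tests, two-sided, adjusted p = 0.0238 over 24 comparisons both for CL against NC and for CL+CX against CL). Itgam was below the array median on all CL+CX and all NC arrays and was the marker not tested. Ccr2 was below it on all NC arrays and passed the filter only through groups where it was higher. Its rise in the count of 16 was thus favoured by the filter. Cd68, Ctss, Lgmn and Laptm5 were not in this list.

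Within the CL+CX group, replicate 1 had the highest marker sum (5463) and the highest signals of Ctss, Lgmn, Cd68, Laptm5, Npc2, Asah1 and Atp6v1b2, and it was the highest of its group for 20 of the 47 genes. The same liver had the lowest hepatocyte sum (52640) and the lowest β-actin difference (0.949) of the CL+CX group. The next lowest β-actin difference was that of replicate 5 (0.9985), while replicate 3 had 1.07. The part of RNA quality in this order of the mice was not tested. CL+CX replicate 3 had the lowest sum (2367) and the lowest signals of Ctss, Lgmn, Laptm5 and Npc2. Within the CL group, replicate 4 had the highest sum (8398) and the highest signals of Ctss and Laptm5, and replicate 2 had the lowest sum (7024) and the lowest signals of Cd68 and Laptm5, while Lgmn was highest in replicate 1, whose sum was 7134. Other members went the other way. CL replicate 2 had the highest CL signals of Npc2, Asah1 and Atp6v1b2 (896, 509 and 190.5), and CL replicate 4 the lowest of Lgmn (324). CL+CX replicate 5, whose sum of 5075 was next to the highest of its group, had the lowest CL+CX signal of Atp6v1b2 (103). The sums of resident Kupffer cell markers were 1139 to 2283 in CL+CX, 2007 to 4444 in CL and 489 to 1312 in NC livers (exact permutation tests, two-sided, adjusted p = 0.0238 for CL against NC and 0.0439 for CL+CX against CL). Taken singly, 5 of these 6 markers rose in CL livers, and none of the 6 fell in CL+CX against CL livers. Over all genes 7.2% rose in the first comparison and 1.78% fell in the second. Those of sinusoidal endothelial markers were 609 to 1339 in CL+CX, 1256 to 1613 in CL and 1090 to 1365 in NC livers. By the same tests the endothelial sums did not pass in CL against NC (adjusted p = 0.105) and were lower in CL+CX than in CL livers (adjusted p = 0.0439). Of the 8 endothelial markers none rose in CL livers, and 2 (Clec4g and Oit3) fell in CL+CX against CL livers. Of 7 markers of lipid-laden macrophages 5 were tested and all 5 rose in CL livers, with sums of 388 to 1783 in CL+CX, 868.9 to 2446 in CL and 269.5 to 337.1 in NC livers (exact permutation tests, two-sided, adjusted p = 0.0238 for CL against NC and 0.0714 for CL+CX against CL), and Trem2 and Mmp12 were under the median of every NC array. Mmp12, one of those tested, passed the filter only through groups where it was higher. Of the 5 tested, 1 (Cd9) fell in CL+CX against CL livers. Stellate cell and fibroblast markers summed to 2120 to 2907 in CL+CX, 2716 to 4960 in CL and 1870 to 2676 in NC livers (exact permutation tests, adjusted p = 0.0238 and 0.0635 in the same comparisons). Of 7 tested singly, 1 (Dcn) rose in CL livers, and the same gene alone fell in CL+CX against CL livers. Markers of T, B and natural killer cells summed to 53.07 to 75.57 in CL+CX, 75.11 to 98.38 in CL and 32.13 to 71.68 in NC livers (exact permutation tests, adjusted p = 0.0238 and 0.0424), with Cd4 and Cd79a below the array median on all arrays. Cd3e was below it on all CL+CX and NC arrays and Nkg7 on all NC arrays, so these sums rest on dim signals. Of 9 listed markers 7 were on the array and 3 were tested. Cd3g and Nkg7 rose in CL livers, and none of the 3 fell in CL+CX against CL livers. Nkg7 passed the filter only through groups where it was higher. The part of these cells in the changes of the lysosomal genes was not tested.

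**Figure D4:**
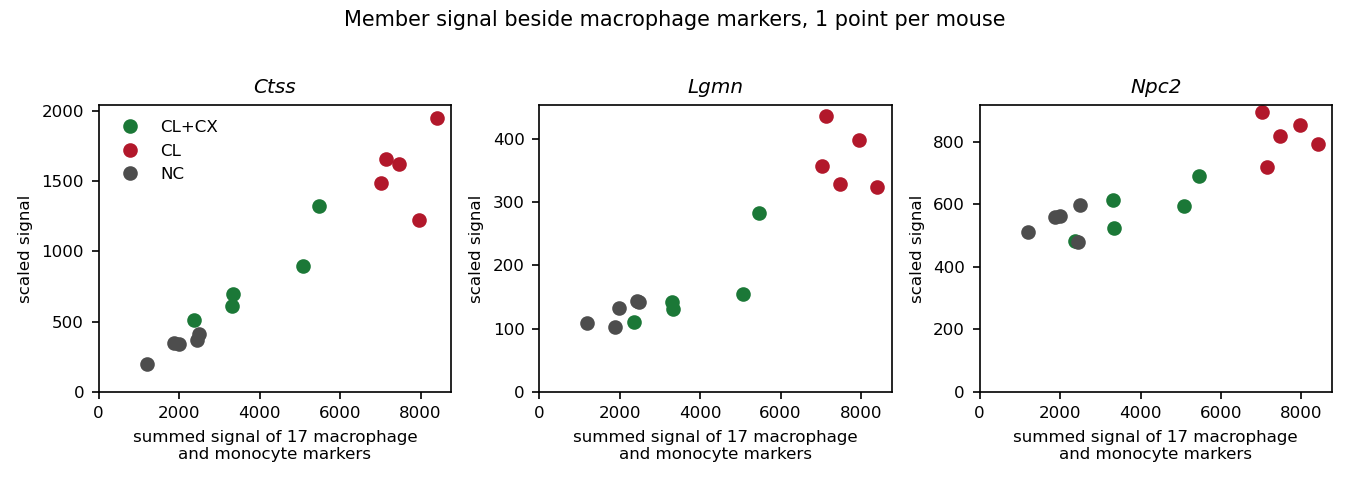
Scaled signal of Ctss, Lgmn and Npc2 against the summed signal of 17 macrophage and monocyte markers, 1 point for each of 15 livers. The CL livers lie apart at sums of 7024 to 8398, and the CL+CX liver with the highest sum, 5463, is the CL+CX liver highest in all 3 genes. Among CL livers, the one with the lowest sum, 7024, is highest in Npc2.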

How the data were processed

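Liver RNA of 15 mice was measured by the authors with 1 array per mouse, and the arrays were summarised to MAS5 signals. The values as deposited are 1 linear intensity for each probe set, without detection calls and without a common scale between arrays. Gene symbols came from the platform's annotation, in which 34958 probe sets have 1 symbol, 932 several and 9211 none, and only probe sets with 1 symbol were named. Each array was scaled to the 75th percentile of 54.05, and a floor of 1 was set (11.3% of values), followed by log2. The median of an array was 9.48 to 16.7 as deposited, and the number of arrays limits the precision. Control probe sets were left out. The labels name colony cages without saying which mice shared one. The tests treat each mouse as a separate unit, so an effect of a shared cage is not accounted for. The p-values may then be too small.

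Means of the 3 groups were fitted with limma 3.58.1 in R 4.3.3, in 1 model, with p adjusted over all probe sets tested, and the fit was tested on simulated data. Sums of markers were compared by exact permutation tests over 252 arrangements of 5 against 5 mice. Promoters were searched and figures drawn in Python 3.11.15 with matplotlib 3.10.9. The members, lists, tests and alternatives were chosen with earlier results of these data known. Every tested member is named, with values per mouse for members that passed with a log2 difference of at least 1 in CL against NC, that passed in CL+CX against CL, or that had the highest mean signal of their role group, and per-mouse values of Ctsb, Hexa, Gla, Gaa, Npc1, Asah1 and Ppt1 were added after they were seen. From each further list, up to 3 genes with the largest change among those that passed in CL against NC and all that passed in CL+CX against CL are named. Deviations of mice with the same replicate number correlated at -0.132 to 0.135, not above 0.1 in every pair, so mice were not paired.

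The alternatives were no filter, a filter at the array's 75th percentile, no scaling, an offset of 16, quantile normalization, the methods' test (Welch's ANOVA with Benjamini-Hochberg adjustment and Tukey's test, used for counts of calls), a trend with a robust prior, only the groups compared, the replicate block, a β-actin covariate, the mean over a gene's probe sets, and each mouse left out. Histology, RT-PCR and metabolic values were not analysed here.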

Additional observations from a re-analysis of the deposited data

Results flagged for a closer look

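Of 141 sets of 5 livers (47 genes in 3 groups), 6 had 1 liver far from the other 4 by Dixon's test at the 95% level, which flags about 1 in 20 sets by chance. Ctso, a cysteine protease, had its highest CL+CX signal, 581, in replicate 5, with the next at 462. Fuca1, a fucosidase, had its lowest CL+CX signal, 646, in the same replicate 5, with the next at 727. Gusb, a β-glucuronidase, had its lowest CL signal, 187, in replicate 2, with the next at 235. Ctss had its lowest NC signal, 197, in replicate 1, with the next at 342, and this mouse also had the lowest sum of macrophage markers among NC livers, 1196. Cln3 had its highest NC signal, 76.3, in the same replicate 1, with the next at 56.1. Gusb had its highest NC signal, 239, in replicate 2, with the next at 199.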

How the results depend on the processing

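Of 21 calls of a lysosomal gene in a comparison, 10 kept their direction and their side of the threshold under all 26 alternatives. In CL against NC the count of 13 genes was 11 to 18 with 1 mouse left out (lowest without NC replicate 1, highest without CL replicate 2), and the median of 0.133 became 0.448 with the signals as deposited, where the median of all genes was 0.24, and 0.212 with quantile normalization. In CL+CX against CL the count of 5 became 0 with no filter, 1 with the signals as deposited, 11 with the methods' test, 1 with only the 2 groups in the fit, 2 with the replicate block, 0 with the β-actin covariate and 9 with the mean over a gene's probe sets. With 1 mouse left out it was 1 to 6, with 1 without CL+CX replicate 2 or 3, 2 without CL+CX replicate 4 or CL replicate 1 or 4, and 3 without CL replicate 2 or 3. With quantile normalization the count stayed 5, with Asah1 in place of Ctss. The median of -0.107 became -0.177 as deposited. In CL+CX against NC the count of 3 became 5 with the methods' test and 5 with the mean of all probe sets, was 2 to 4 with 1 mouse left out, and its median of -0.004 became 0.241 as deposited. The signals as deposited also turned the sign of Ctsl (0.015), Lamp2 (0.005), Scarb2 (0.001) and Smpd1 (0.071) in CL minus NC and of Smpd1 (0.12) in CL+CX minus NC, none of which had passed. The replicate block ended the CL+CX against CL calls of Ctss, Cd68 and Npc2 and changed no other call of a lysosomal gene. Over all genes, the 1468 calls in CL against NC became 657 with no filter, 949 with the methods' test, 687 with the β-actin covariate and 1028 to 2345 with 1 mouse left out. The 343 calls in CL+CX against CL became 21 with no filter, 50 as deposited, 539 with the offset, 556 with the methods' test, 80 with only 2 groups, 196 with the block, 1 with the β-actin covariate and 59 to 465 with 1 mouse left out. The 1048 calls in CL+CX against NC became 321 with no filter, 1680 with only 2 groups, 378 with the β-actin covariate and 624 to 1582 with 1 mouse left out. Without the filter more probe sets were tested, and the cause of the other changes was not tested. Ctsk, Tfeb and Gla lie near the array median, where signals have little precision.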
